A study of Mus musculus with 8 samples.

Results

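The subject here is the effect of deleting Setdb1 that mouse pro-B cells from bone marrow and from interleukin-7 (IL-7) culture have in common. All 4 arrays labelled Del were set against all 4 labelled Wt, with the condition as a block, so that 8 of the 8 arrays of the series entered and every gene with a name of its own on the array was a candidate. The controls carried the floxed gene (Setdb1 C/C) and the deleted cells carried Setdb1 Δ/Δ. In the bone marrow condition, 2 control and 2 deleted arrays came from cells with no bcl2 transgene, and the design text has these cells taken straight from the marrow. In the culture condition, 2 control and 2 deleted arrays came from bcl-2 transgenic cells kept in IL-7 for 4 days, so culture and transgene cannot be told apart, and a change common to both conditions is one seen with and without both. The growth protocol repeats the culture step for all samples, in disagreement with the design text. The recombinase that made the deletion, the deleted exons and the age of the mice are not given in the sources used here. The labels do not name separate animals or cultures behind the 2 arrays of a group. The p-values therefore rest on the scatter among these arrays, part or all of which may be technical, and precision is limited by the number of arrays.

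SETDB1 methylates histone H3 at lysine 9, a mark of silent chromatin, and in many cell types it is brought to retroviral sequences by zinc finger proteins through the co-repressor TRIM28. Pro-B cells are the precursors in which the immunoglobulin heavy chain gene is rearranged. They depend on IL-7 and display a surrogate light chain, and they later gain the surface receptors and antigen-presenting molecules of mature B cells.

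The labelled cell type was checked first. The 8 measured pro-B markers of the 9 listed lay between log2 values of 6.06 and 12.16 on all 8 arrays, with the surrogate light chain gene Igll1 between 10.42 and 12.16 and the transcription factor gene Ebf1 between 10.02 and 10.70. The median gene value of an array lay between 5.25 and 5.33, and no 2 arrays held identical values. Bone marrow control 1 stood apart: its mean over 16 monocyte and macrophage markers was 9.24, against 6.99 in bone marrow control 2 and 5.13 to 7.08 on the other 6 arrays. Neutrophil transcripts were not limited to that array. The mean over 15 neutrophil markers was 8.90 to 9.31 in marrow and 4.56 to 8.10 in culture. Of these markers, S100a8 read 11.94 to 12.46 on the marrow arrays, and 11.80 and 11.92 on the culture arrays numbered 2. It read 5.68 and 7.83 on the culture arrays numbered 1. In bulk RNA, more cells of a type and more RNA per cell cannot be told apart. Setdb1 itself did not differ, at -0.01 (SE 0.16, adjusted p = 0.975), with 10 of its 23 probesets higher and 13 lower in deleted cells. Its sign was turned in 4 of the 8 fits that left out 1 array, with values from -0.13 to 0.09. Probesets outside the deleted part would not report a deletion, and which probesets lie in it is not known here.

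Over both conditions, 323 of 16050 genes tested passed an adjusted p of 0.05 in limma (2.01%). Of these, 166 rose in deleted cells (1.03%) and 157 fell (0.978%). Values are log2 differences, deleted minus control, with the standard error (SE) of the fit over 4 against 4 arrays; a difference of 1 is a 2-fold change. The falls were the larger changes, with a median of -1.12 against 0.86 for the rises, while the median over all genes tested was 0.018. Without adjustment, 2737 genes (17.1%) had a p under 0.05, and 8545 (53.2%) were higher in deleted cells; unadjusted counts and counts of higher members in a list stand beside these shares. A difference of at least 1 was reached by 154 of the 323 genes and one of at least 2 by 28. In each of the 323, both deleted arrays lay on the same side of both controls in marrow and in culture, and on the same side in both conditions; over all genes tested, and without any test, 2500 genes (15.6%) separated in this way. The block model counts a difference between the conditions as spread, so its calls favour like changes, and this agreement is not independent evidence.

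**Figure D1:**
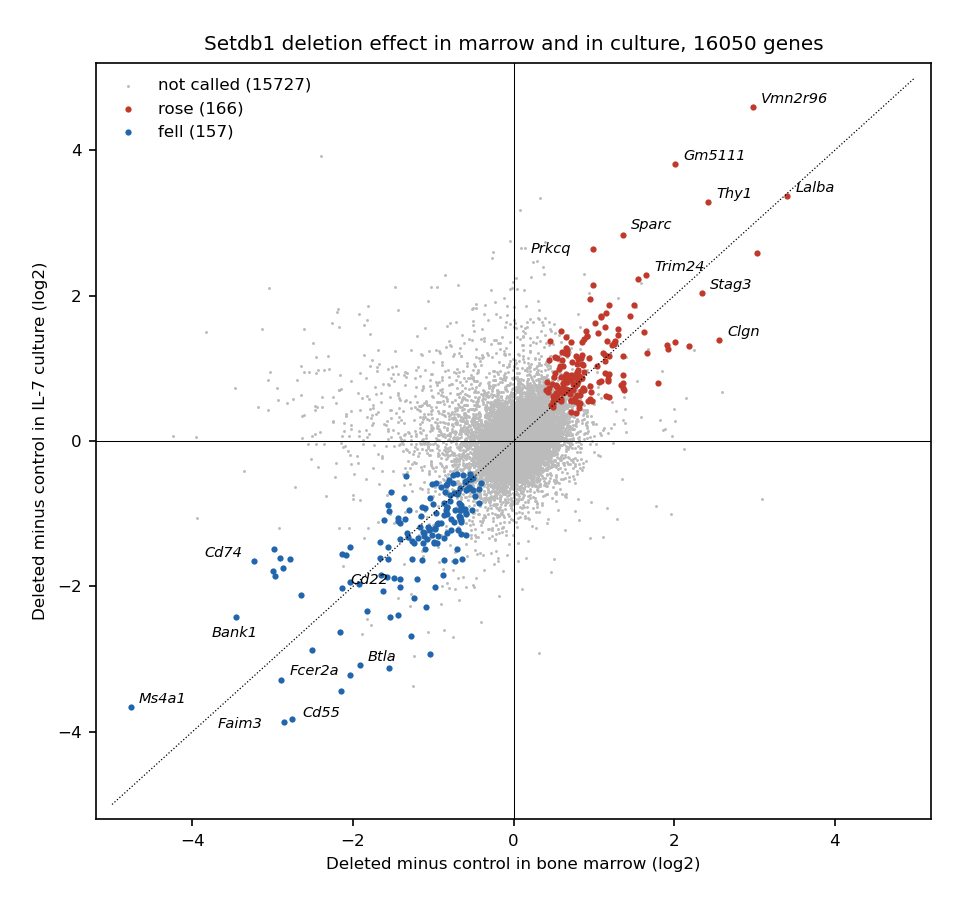
Each point is 1 of 16050 genes, placed by its log2 difference, deleted minus control, in bone marrow (horizontal axis) and in IL-7 culture (vertical axis); red points are the 166 genes that rose and blue points the 157 that fell over both conditions, and the dotted line marks equal differences. All red points lie at the upper right and all blue points in the lower left, with Vmn2r96 and Lalba at the upper end and Ms4a1, Faim3 and Cd55 at the lower end.

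The sizes of the change in marrow and culture were often close in these genes. The block model favours like sizes, so this closeness follows in part from the choice of genes. No share over all genes tested stands beside it. The smaller of a gene's within-condition differences was at least 50% of the larger in 298 of the 323, with a median ratio of 0.749. The change was larger in culture for 210 genes (65.0%) and larger in marrow for 113, against 52.9% larger in culture over all genes tested. Rises had a median of 0.81 in marrow and 0.90 in culture, and falls had medians of -1.01 and -1.19. The interaction test, which asks whether the effect differed between conditions, called 0 of 16050 genes (0%) in limma, with 1216 at an unadjusted p under 0.05. Of the 323 shared genes, 40 (12.4%) were under that unadjusted value, against 7.58% of all genes tested. A p that misses the threshold does not show equal effects, and 2 arrays per group leave this test little precision.

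Using both conditions gave more calls than either alone. The same arrays called 21 genes (0.131%) in bone marrow alone and 232 (1.45%) in culture alone. Of the 323 shared genes, 19 passed in marrow, 127 in culture, 11 in both, and 188 in neither. The 10 genes of lowest p among those 188 include Fdps, which encodes farnesyl diphosphate synthase of the cholesterol pathway. It read 5.30 and 5.51 in marrow controls and 6.27 and 6.28 in deleted marrow cells. In culture it read 6.89 and 6.88 in controls and 7.58 and 7.64 in deleted cells. The groups did not overlap within either condition, and the shared difference was 0.80 (SE 0.10, adjusted p = 0.00942). Tyms, the thymidylate synthase gene, rose by 0.96 (SE 0.12), Spcs3, a signal peptidase subunit gene, by 0.76 (SE 0.10), the smoothelin gene Smtn by 1.04 (SE 0.14), and Stag3 by 2.19 (SE 0.29). Tmem180 (Mfsd13a) rose by 1.12 (SE 0.15). Among the falls were Nlrc4, an inflammasome sensor gene, at -1.26 (SE 0.17), Arhgap25 at -0.73 (SE 0.10), Ms4a1, and Gm5098 at -0.76 (SE 0.10), an older array symbol that RefSeq lists under Sh3pxd2a. None of these 10 kept its call when each array was left out in turn: all lost it without bone marrow deleted 2. Their signs could not turn in these fits, because their groups were separate in both conditions.

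The count of genes rested strongly on single arrays. It was 699 without bone marrow control 1, 120 without bone marrow control 2, 103 and 59 without bone marrow deleted 1 and 2, 110 and 143 without culture control 1 and 2, and 147 and 119 without culture deleted 1 and 2. With both culture arrays numbered 2 left out, 9 genes passed. No gene among the 323 changed sign in any of these 9 fits or the 9 other settings tried. In all 323, both deleted arrays lay beyond both controls in each condition. Leaving out arrays therefore could not turn a sign, and the unchanged signs are no measure of stability. In all 8 fits that left out 1 array, 53 genes passed, 20 that rose and 33 that fell. In all 18 settings, 6 passed: Lalba, Akap5 and Elovl6, which rose, and Cd55, Cd22 and Hdac9, which fell.

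**Figure D2:**
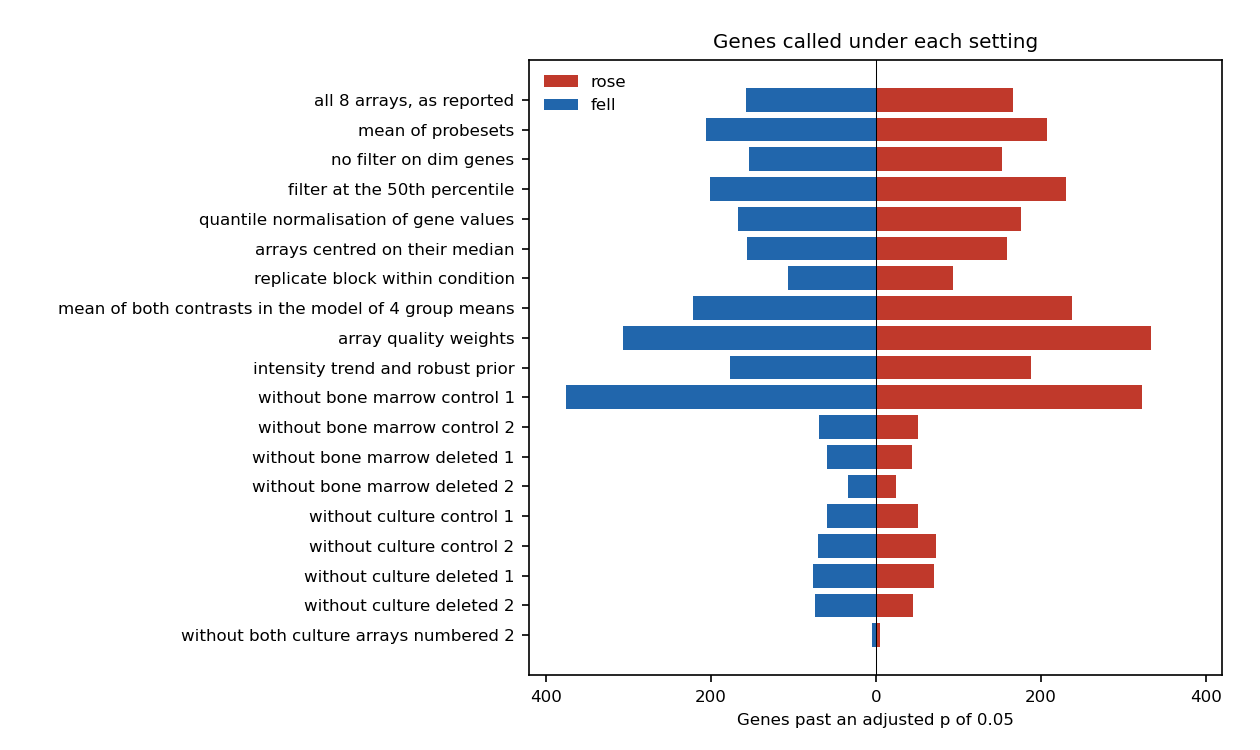
Bars give the number of genes past an adjusted p of 0.05 that rose (red, to the right) and fell (blue, to the left) with all 8 arrays and under each of 18 other settings. The count is 699 without bone marrow control 1 and 9 without both culture arrays numbered 2, against 323 with all arrays.

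The deepest shared falls were in genes of the B cell surface. Ms4a1 encodes CD20, a membrane protein gained during B cell development. It read 7.09 and 9.69 in marrow controls and 3.46 and 3.78 in deleted marrow cells. In culture it read 9.34 and 9.75 in controls and 6.29 and 5.47 in deleted cells. Bone marrow control 1 was the lowest control, and it still lay above every deleted array. The difference was -4.21 (SE 0.53, adjusted p = 0.0107), and -3.59 to -4.62 when single arrays were left out.

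Cd55, decay-accelerating factor of the complement system, had the smallest SE of the 15 largest falls. Its controls read 7.80 and 8.20 in marrow and 9.02 and 8.88 in culture, and its deleted arrays 5.24 and 5.23 in marrow and 5.04 and 5.21 in culture. All 4 deleted arrays lay within a narrow band below all controls, with a difference of -3.29 (SE 0.22, adjusted p = 0.00198). Faim3 (Fcmr), the IgM Fc receptor gene, was 6.54 and 8.95 in marrow controls, 4.86 and 4.92 in deleted marrow cells, 9.12 and 9.44 in culture controls and 5.63 and 5.21 in deleted culture cells. Its difference was -3.36 (SE 0.47, adjusted p = 0.0147). Fcer2a (CD23), the low-affinity IgE receptor, fell by 3.09 (SE 0.45), and on all 4 deleted arrays it lay between 3.76 and 4.03, at or under the value of 4.03 below which genes were treated as dim, so that its fall is given as at least 2.98, the distance of its control mean of 7.01 from that value.

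Of the 18 measured co-receptors and inhibitory receptors of the B-cell receptor, 7 fell (Ms4a1, Faim3, Btla, Fcrl1, Cd22, Cd72 and Cd180), 0 rose, and all 18 were lower in the mean, with a median of -0.94. Cd22, an inhibitory lectin of the B-cell receptor, read 8.25 and 8.50 in marrow controls against 6.18 and 6.31 in deleted marrow cells. In culture its controls read 8.91 and 9.02 and its deleted arrays 7.39 and 6.50. The groups did not overlap, and the difference was -2.08 (SE 0.18, adjusted p = 0.00473). The inhibitory receptor gene Btla fell by 2.50 (SE 0.42), and Fcrl1, an Fc receptor-like gene of B cells, fell by 2.38 (SE 0.27). The receptor subunit genes Cd79a (-0.62, adjusted p = 0.0976) and Cd79b (-0.41, adjusted p = 0.423) did not pass. The number of members that fell was 2 to 10 when single arrays were left out, with 2 without bone marrow deleted 2 and 10 without bone marrow control 1.

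Among 14 measured genes listed under signalling of that receptor, 3 fell and 0 rose, with a median of -0.36. Bank1, a scaffold protein of B-cell receptor signalling, read 7.55 and 7.80 in marrow controls, 3.84 and 4.60 in deleted marrow cells, 7.93 and 8.60 in culture controls and 5.83 and 5.87 in deleted culture cells. All deleted arrays lay below all controls, with a difference of -2.93 (SE 0.27, adjusted p = 0.00473). Ptpn6 (SHP-1), the phosphatase recruited by inhibitory receptors, fell by 0.98 (SE 0.11), and Ralgps2, a guanine nucleotide exchange factor, by 1.98 (SE 0.33). The kinase genes Blk (-1.13, adjusted p = 0.0591), Syk (-1.0, adjusted p = 0.0657) and Btk (-0.13, adjusted p = 0.623) did not pass. The count of falls was 2 to 5 when single arrays were left out, with 5 without bone marrow control 1.

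Other large falls were Cd2 (-2.63, SE 0.49), an adhesion molecule of lymphocytes, Rasgrp1 (-2.41, SE 0.35), a Ras exchange factor, Tlr1 (-2.39, SE 0.31), a receptor for bacterial lipopeptides, and the carboxypeptidase gene Cpm (-2.39, SE 0.30). Pgap1, which remodels lipid anchors of membrane proteins, fell by 2.31 (SE 0.30), and Angptl1 by 2.34 (SE 0.38); Angptl1 and Ralgps2 overlap in the annotation, so their probesets may read shared transcripts. Of the 15 largest falls, Bank1, Cd55, Cd74, Cpm and Fcrl1 kept their call when each array was left out. The other 10 lost it without 1 or more arrays, with adjusted p up to 0.116 and differences of at least 1.96 in size.

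**Figure D3:**
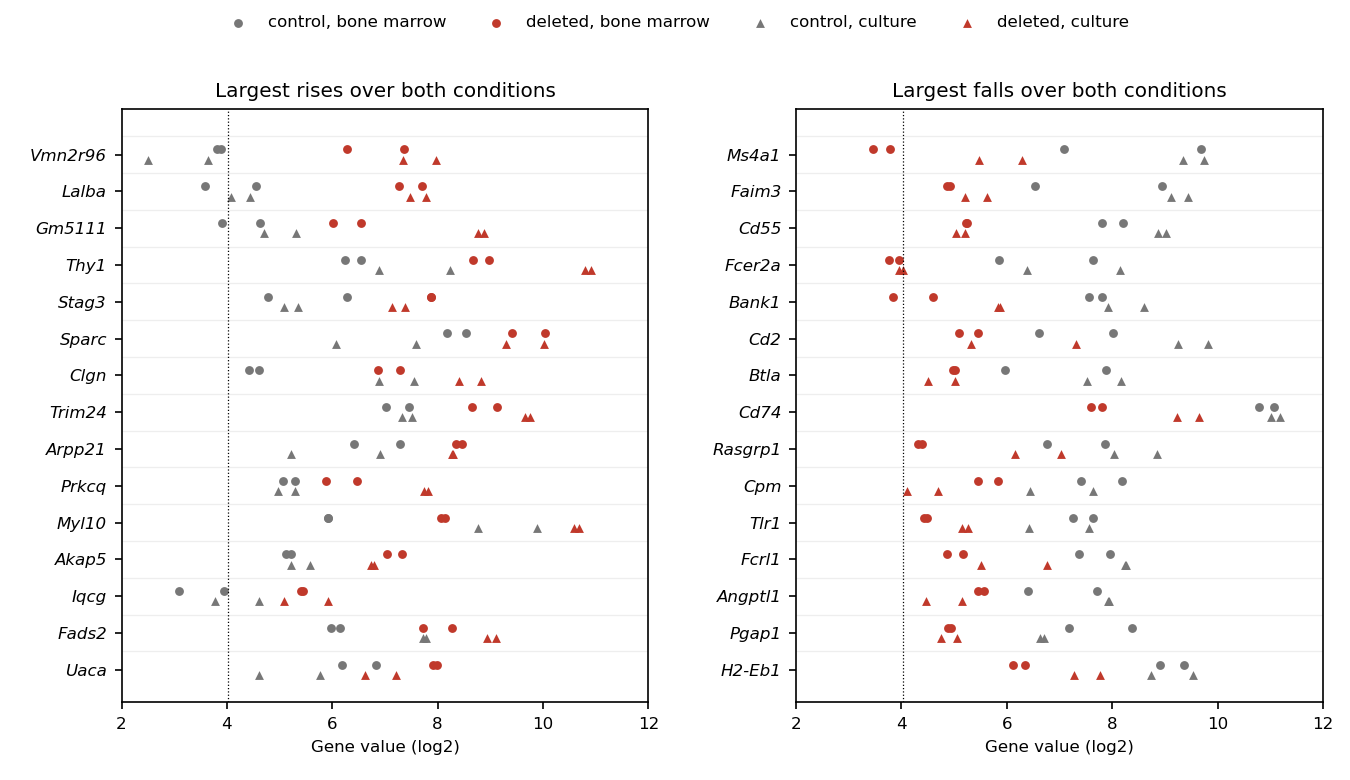
Points give the log2 gene value on each of the 8 arrays for the 15 largest rises (left) and the 15 largest falls (right); grey marks controls, red deleted cells, circles bone marrow, triangles culture, and the dotted line the dim value of 4.03. Within each condition the red points lie on 1 side of the grey points for every gene. Across conditions red and grey points overlap in some genes, among them Myl10, Clgn, Fads2 and Uaca on the left and Cd2 and Rasgrp1 on the right.

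MHC class II genes, whose products load peptides and present them to helper T cells, were lower in deleted cells: 7 of 10 measured members fell, 0 rose, and all 10 were lower in the mean, with a median of -1.84. Cd74, the invariant chain, read 11.07 and 10.79 in marrow controls, 7.81 and 7.59 in deleted marrow cells, 11.01 and 11.18 in culture controls and 9.65 and 9.23 in deleted culture cells. Its groups did not overlap, and the shared difference was -2.44 (SE 0.30, adjusted p = 0.0107). The chain genes H2-Aa (-2.21, SE 0.24), H2-Eb1 (-2.26, SE 0.30) and H2-Ab1 (-1.75, SE 0.25) fell. H2-DMb1, measured by 1 probeset and similar in sequence to H2-DMb2, fell by 1.94 (SE 0.18), and H2-DMa by 1.05 (SE 0.18). Ciita, the activator that class II promoters depend on, read 6.60 and 7.06 in marrow controls against 4.97 and 5.53, and 6.97 and 7.61 in culture controls against 5.67 and 5.18. Ciita thus fell with them, by 1.72 (SE 0.21, adjusted p = 0.0102). H2-DMb2 (-2.25, adjusted p = 0.051), H2-Ob (-1.07, adjusted p = 0.193) and H2-Oa (-0.62, adjusted p = 0.338) did not pass. Macrophages also express class II genes, and bone marrow control 1, whose mean over macrophage markers was 9.24, is among the controls; the part of such cells in these falls was not tested. The number that fell was 10 without bone marrow control 1, 4 without bone marrow deleted 1 or 2, 5 to 7 without each of the other 5 arrays, and 0 without both culture arrays numbered 2.

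H2-Ab1, H2-Aa and H2-Eb1 are neighbours in the RefSeq order of tested genes, and the promoters of H2-Aa and H2-Eb1 are shown for the letters searched in them. The sequences span the annotated start of the transcript, most of each lying upstream, and are RefSeq's, for build GRCm38.p6, written along the strand of the gene. Capitals mark matches to the letters of the X box (GCAAC, any base, GATG) and the Y box (TGATTGG), sites in class II promoters bound by the factors with which CIITA assembles. H2-Aa lies at chr17:34287774-34288073 on the minus strand and H2-Eb1 at chr17:34305617-34305916 on the plus strand.
H2-Aa: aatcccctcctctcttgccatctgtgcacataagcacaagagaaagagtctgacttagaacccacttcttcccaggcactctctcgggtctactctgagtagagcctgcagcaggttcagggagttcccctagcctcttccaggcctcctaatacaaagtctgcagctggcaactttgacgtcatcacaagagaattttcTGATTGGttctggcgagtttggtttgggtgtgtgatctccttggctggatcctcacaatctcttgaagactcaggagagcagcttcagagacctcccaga
H2-Eb1: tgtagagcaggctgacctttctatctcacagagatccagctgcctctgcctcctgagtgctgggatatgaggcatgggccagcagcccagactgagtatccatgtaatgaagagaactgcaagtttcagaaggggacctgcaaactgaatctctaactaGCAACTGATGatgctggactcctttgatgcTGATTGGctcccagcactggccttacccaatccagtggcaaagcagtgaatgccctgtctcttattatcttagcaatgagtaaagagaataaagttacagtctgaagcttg
Both hold the Y box letters and H2-Eb1 alone the X box letters. On either strand, the Y box letters stand in 7.82% of 32851 promoters of this length, in 12.3% of the 130 genes that fell with a promoter in the table, in 13.9% of the 137 that rose and in 10.7% of 12465 genes tested. The X box letters stand in 0.192% of all promoters, in 0.209% of genes tested, in 2 of the genes that fell (1.54%, H2-Eb1 and Hdac9) and in 2 that rose (1.46%). A match to letters is a description and not a binding site.

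Of 19 transcription factors of the B lineage, 3 fell and 0 rose, with a median of -0.15. Ikzf3 (Aiolos), which rises as pre-B cells mature, read 7.79 and 8.77 in marrow controls against 5.37 and 5.21, and 9.36 and 9.12 in culture controls against 8.33 and 7.18. Its groups were separate within each condition while deleted culture cells overlapped with marrow controls, and the shared difference was -2.24 (SE 0.38, adjusted p = 0.0269). Bach2, a repressor of plasma cell fate, fell by 1.18 (SE 0.21), and Irf4 by 0.92 (SE 0.14). Pax5 (-0.30, adjusted p = 0.403), Ebf1 (-0.11, adjusted p = 0.844) and Tcf3 (0.19, adjusted p = 0.434) did not pass. The number of falls was 0 to 4 when single arrays were left out: 4 without bone marrow control 1, 1 without culture control 2, culture deleted 1 or culture deleted 2, and 0 without each of the other 4 arrays.

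Genes of the surrogate light chain, the partner of the heavy chain in the pre-B-cell receptor, were in part higher. Of 11 measured genes on the list for this receptor and recombination, 3 rose and 0 fell, with a median of 0.37. The end-joining genes Polm and Dclre1c were not on the list and were picked after their values were seen. They fell by 1.38 (adjusted p = 0.0277 in limma) and 0.67 (adjusted p = 0.0481), and were called in 11 and 8 of 18 settings. Vpreb2 read 9.05 and 9.42 in marrow controls, 10.61 and 10.46 in deleted marrow cells, 9.37 and 9.72 in culture controls and 11.11 and 10.90 in deleted culture cells. The deleted arrays all lay above the controls, with a difference of 1.38 (SE 0.13, adjusted p = 0.00514); Vpreb2 and Vpreb1 are near-identical, so the split between them is uncertain, and Vpreb1 itself stood at 0.37 (adjusted p = 0.237). Igll1 rose by 0.98 (SE 0.17). Erg, a transcription factor of progenitors and not a gene of the receptor, was also on the list and rose by 1.05 (SE 0.20). The recombinase genes Rag1 (-1.30, adjusted p = 0.377) and Rag2 (-0.13, adjusted p = 0.904) and the terminal transferase gene Dntt (1.88, adjusted p = 0.142) did not pass. The count of rises was 1 to 3 when single arrays were left out.

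Among 13 measured genes on the homing and adhesion list, 1 fell (Cd55) and 0 rose, with a median of -0.34. Cd2, the adhesion molecule given above among the large falls, was not on this list. The migration receptors S1pr1 (-1.58, adjusted p = 0.0593) and Ccr7 (-1.39, adjusted p = 0.0637) missed the threshold. Without bone marrow control 1, 6 members of this list fell.

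The largest shared rises were of mixed function. Vmn2r96, named as a vomeronasal receptor, read 3.88 and 3.81 in marrow controls, 7.35 and 6.29 in deleted marrow cells, 2.50 and 3.63 in culture controls and 7.97 and 7.34 in deleted culture cells. All controls were below the dim value of 4.03, so the gene entered the test through its deleted arrays, and their mean of 7.24 lay 3.21 above that value. The difference is given as at least 3.21; the fitted value, which is no bound, was 3.78 (SE 0.41, adjusted p = 0.00641). The gene belongs to a large family of close copies, so its probesets may read several members. Lalba, the milk protein alpha-lactalbumin, read 3.59 and 4.55 in marrow controls, 7.69 and 7.26 in deleted marrow cells, 4.08 and 4.44 in culture controls and 7.78 and 7.48 in deleted culture cells. Its change was almost equal in both conditions, with a shared difference of 3.39 (SE 0.22, adjusted p = 0.00198).

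Gm5111, a gene model of unnamed function, rose by 2.91 (SE 0.37) and was higher in deleted culture cells (8.76 and 8.88) than in deleted marrow cells (6.54 and 6.02). Thy1, a glycoprotein of T cells and of some progenitors, read 6.25 and 6.55 in marrow controls against 8.97 and 8.68, and 6.89 and 8.23 in culture controls against 10.90 and 10.80. It rose by 2.86 (SE 0.30, adjusted p = 0.00588). Trim24, a chromatin reader related to TRIM28, read 7.03 and 7.45 in marrow controls against 9.12 and 8.65, and 7.51 and 7.32 in culture controls against 9.65 and 9.75. The groups did not overlap, and it rose by 1.97 (SE 0.18, adjusted p = 0.00473). Akap5, an anchor for protein kinase A, rose by 1.69 (SE 0.16) and Arpp21 by 1.89 (SE 0.36). The myosin light chain gene Myl10 rose by 1.74 (SE 0.26), Uaca by 1.59 (SE 0.27) and Iqcg by 1.61 (SE 0.29). The control mean of Iqcg was 3.85, under the dim value of 4.03, so the size of its rise is uncertain. Of the 15 largest rises, Akap5, Fads2, Gm5111, Lalba, Thy1, Trim24 and Vmn2r96 kept their call when each array was left out. The other 8 lost it without 1 or more arrays, with adjusted p up to 0.133 and differences of at least 1.32.

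The rule for the largest changes asked for 3 probesets. Tubb3, a neuronal tubulin measured by 1 probeset, was outside it and is named because its value was seen: 2.81 (SE 0.50, adjusted p = 0.0301), with its neighbour Def8 at 1.04. 2810474O19Rik (Resf1), a retroelement silencing factor, was also chosen after its value was seen. It read 7.35 and 7.52 in marrow controls against 9.30 and 8.81, and 8.13 and 7.80 in culture controls against 9.35 and 9.58, and it rose by 1.56 (SE 0.14, adjusted p = 0.00473). Of the 323 genes, 301 were measured by at least 3 probesets and 22 by 1 or 2. The mean of the controls was below the dim value for 2 rises, and the mean of the deleted arrays was below it for 8 falls.

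**Figure D4:**
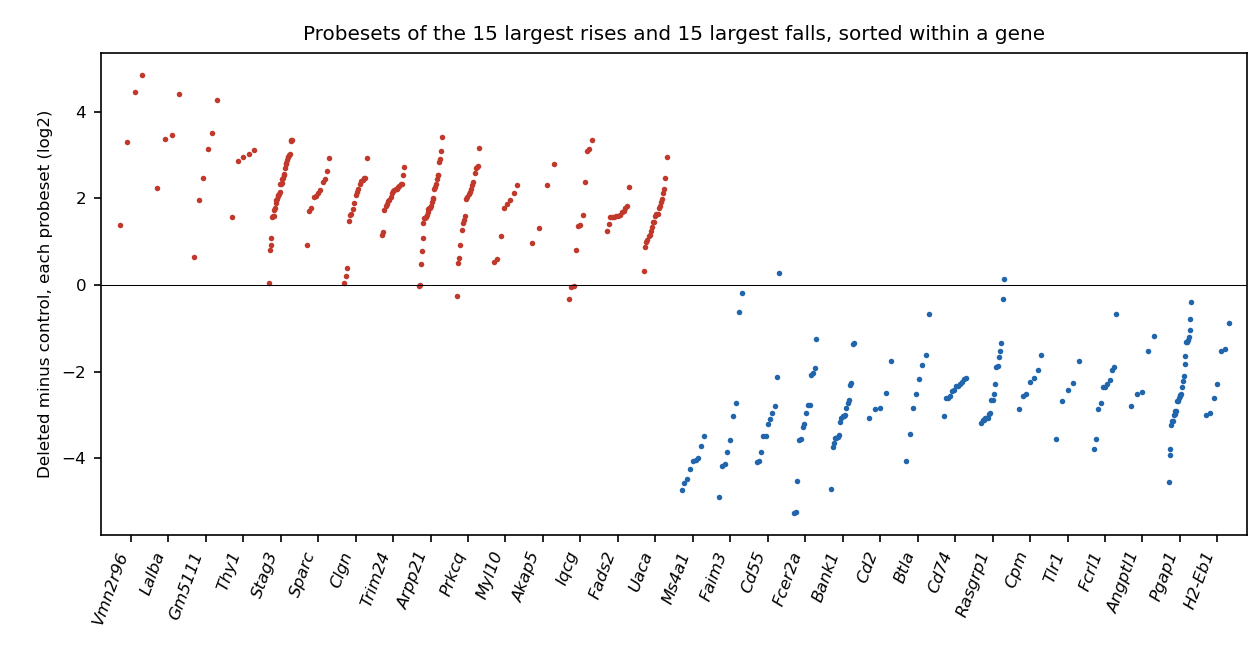
Points give the log2 difference, deleted minus control over both conditions, of each probeset of the 15 largest rises (red) and the 15 largest falls (blue), sorted within a gene. Nearly all probesets of a gene lie on 1 side of 0; Iqcg has 3 probesets on the other side, Arpp21 2, and Prkcq, Cd55 and Rasgrp1 1 each.

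Chaperones and folding enzymes of the endoplasmic reticulum prepare secreted and membrane proteins. Of 22 measured genes of this kind, 8 rose, 0 fell and 20 were higher in the mean, with a median of 0.63. Pdia6, a disulfide isomerase, read 8.81 and 8.64 in marrow controls, 9.56 and 9.58 in deleted marrow cells, 8.51 and 8.71 in culture controls and 9.87 and 10.07 in deleted culture cells. All deleted arrays lay above all controls, with a difference of 1.11 (SE 0.14, adjusted p = 0.0101). Hyou1, a chaperone of the HSP70 family, rose by 1.18 (SE 0.17), the isomerase gene Pdia4 by 0.78 (SE 0.10), Manf by 0.76 (SE 0.11) and Pdia3 by 0.74 (SE 0.14). Hspa5 (BiP), the main chaperone of this compartment, read 10.19 and 9.66 in marrow controls, 10.49 and 10.48 in deleted marrow cells, 9.63 and 9.78 in culture controls and 10.60 and 10.79 in deleted culture cells. It rose by 0.78 (SE 0.15, adjusted p = 0.0417). Xbp1, a transcription factor of the unfolded protein response, rose by 1.04 (SE 0.20). Clgn (calmegin), a testis chaperone, had the largest rise of the list at 1.98 (SE 0.27). Hsp90b1 (0.48, adjusted p = 0.0506) lay just outside the threshold. The members lower in the mean were Atf6 at -0.51 (adjusted p = 0.116) and Ero1lb at -0.47 (adjusted p = 0.379). The count of rises was 13 without bone marrow control 1, 2 to 5 without each of the other arrays, and 0 without both culture arrays numbered 2.

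Genes for entry into and modification within this compartment were noticed after the values were seen. The 18 so picked, all because they were called, had a median of 0.70, among them the oligosaccharyltransferase subunit gene Rpn1 (0.96, SE 0.17), the signal recognition particle gene Srp68 (0.59, SE 0.10) and the translocon-associated gene Ssr3 (0.63, SE 0.10). Their count supports nothing beyond the listed values.

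The amino acid branch of the stress response, which the factor ATF4 governs, gave 5 calls: 5 of 19 measured members rose, 0 fell and 18 were higher in the mean, with a median of 0.61. Asns, asparagine synthetase, read 4.98 and 4.84 in marrow controls, 6.19 and 6.24 in deleted marrow cells, 7.89 and 7.30 in culture controls and 8.89 and 9.38 in deleted culture cells. Levels were higher in culture in both genotypes, and within each condition the deleted arrays lay above the controls, with a difference of 1.42 (SE 0.16, adjusted p = 0.00801). Shmt2 and Phgdh, enzymes of serine metabolism, rose by 1.04 (SE 0.15) and 1.01 (SE 0.16), Trib3 by 0.76 (SE 0.14) and Chac1 by 0.84 (SE 0.17). Atf4 itself (0.35, adjusted p = 0.154) and Ddit3 (0.48, adjusted p = 0.104) did not pass. The count was 8 without bone marrow control 1, 1 or 2 without each of the other arrays, and 0 without both culture arrays numbered 2. Picked after the values were seen, the transfer RNA synthetase genes Gars (0.75, SE 0.12), Yars (0.73, SE 0.15) and Iars (0.57, SE 0.11) and the branched-chain aminotransferase gene Bcat1 (1.35, SE 0.18) rose as well.

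A pair of promoters from each group is shown, picked because they hold the letters searched. Capitals mark the endoplasmic reticulum stress element (CCAAT, 9 bases of any kind, CCACG) in Hspa5 and Pdia6 and the amino acid response element (TGATGNAAT, here on the opposite strand) in Iars and Gars. The windows are Hspa5 at chr2:34771840-34772139, Pdia6 at chr12:17266339-17266638, Iars at chr13:49681880-49682179 and Gars at chr6:55037751-55038050, all on the plus strand of GRCm38.p6.
Hspa5: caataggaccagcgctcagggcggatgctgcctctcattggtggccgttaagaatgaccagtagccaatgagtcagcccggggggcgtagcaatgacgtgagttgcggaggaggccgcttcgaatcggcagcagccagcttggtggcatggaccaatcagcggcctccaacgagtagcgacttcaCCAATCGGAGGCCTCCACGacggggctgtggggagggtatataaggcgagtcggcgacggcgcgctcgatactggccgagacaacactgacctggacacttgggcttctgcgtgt
Pdia6: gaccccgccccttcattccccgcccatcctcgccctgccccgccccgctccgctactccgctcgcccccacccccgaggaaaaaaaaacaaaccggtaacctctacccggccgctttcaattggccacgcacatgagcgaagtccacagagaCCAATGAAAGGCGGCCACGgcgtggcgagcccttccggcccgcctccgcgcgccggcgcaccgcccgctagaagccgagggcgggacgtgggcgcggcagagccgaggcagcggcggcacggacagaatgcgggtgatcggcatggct
Iars: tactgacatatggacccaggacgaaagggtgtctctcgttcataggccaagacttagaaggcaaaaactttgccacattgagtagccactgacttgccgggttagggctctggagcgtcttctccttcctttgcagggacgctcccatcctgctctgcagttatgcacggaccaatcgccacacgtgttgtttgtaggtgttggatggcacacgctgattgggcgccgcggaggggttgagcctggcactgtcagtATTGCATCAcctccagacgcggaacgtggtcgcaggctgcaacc
Gars: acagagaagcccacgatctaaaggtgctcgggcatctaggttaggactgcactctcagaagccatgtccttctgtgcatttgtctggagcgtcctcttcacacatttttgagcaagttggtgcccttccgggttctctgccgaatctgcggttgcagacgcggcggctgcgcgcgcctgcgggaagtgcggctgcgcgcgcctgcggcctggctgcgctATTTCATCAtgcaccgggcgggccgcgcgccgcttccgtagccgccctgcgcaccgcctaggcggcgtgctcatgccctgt
The stress element letters stand in 0.119% of 32851 promoters and in 0.16% of 12465 genes tested, and among the genes called in 2 that rose (1.46% of 137, Hspa5 and Pdia6) and 0 that fell. The amino acid response letters stand in 0.965% of promoters, in 0.602% of genes tested, in 5 that rose (3.65%, Cnpy2, Gars, Iars, Map10 and Serpinf1) and in 1 that fell (0.769%, Arid5b). The first letters of the stress element, read on the other strand, overlap the core of the Y box, so the searches are not independent. The sterol element letters TCACNCCAC stand in 1.24% of promoters, 0.73% of genes that rose and 1.54% of those that fell, and the STAT letters TTCNNNGAA in 8.30%, 8.03% and 9.23%.

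Lipid synthesis genes were partly higher. Among 14 genes of fatty acid synthesis and desaturation, 3 rose and 0 fell, with a median of 0.49. Elovl6, which lengthens fatty acids, read 7.81 and 7.81 in marrow controls against 8.97 and 9.01, and 8.02 and 8.39 in culture controls against 9.22 and 9.54. The deleted arrays lay above all controls, with a difference of 1.18 (SE 0.12, adjusted p = 0.00568). Fads2, a desaturase, rose by 1.60 (SE 0.18) and Fasn, fatty acid synthase, by 0.83 (SE 0.14). Scd1, another desaturase, stood at -2.50 and did not pass (adjusted p = 0.0758). Of 14 cholesterol synthesis genes 1 rose (Fdps), 0 fell and 13 were higher in the mean, with a median of 0.34. Leaving out single arrays gave 2 to 6 rises among the fatty acid genes and 0 to 2 among the cholesterol genes, the 0 including the fit without bone marrow deleted 2, in which Fdps had an adjusted p of 0.0509.

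Of 17 genes of IL-7 signalling, 2 rose and 0 fell, with a median of 0.12. Both encode feedback inhibitors that STAT5 induces. Cish read 4.58 and 4.80 in marrow controls against 6.09 and 5.57, and 5.99 and 6.39 in culture controls against 7.91 and 7.99, a difference of 1.45 (SE 0.18, adjusted p = 0.0109). Socs2 rose by 1.30 (SE 0.23). The receptor gene Il7r (-0.37, adjusted p = 0.48) and Stat5b (-0.00, adjusted p = 0.994) did not pass. In marrow alone Socs2 passed (1.79, adjusted p = 0.045) and Cish did not (1.14, adjusted p = 0.126). In culture alone Cish passed (1.76, adjusted p = 0.0206) and Socs2 did not (0.80, adjusted p = 0.156). The limma interaction test called neither, with adjusted p of 0.683 for Cish and 0.605 for Socs2. A difference between the conditions was therefore not shown for either gene. Cish kept its shared call when each array was left out, while Socs2 lost it without 6 of the 8 arrays (adjusted p up to 0.11). The list held 1 to 4 rises and 0 to 3 falls over those fits, with 4 and 3 without bone marrow control 1. Hemk1, the neighbour of Cish, rose by 1.04.

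No listed gene of heterochromatin passed, while the list for retroviral defence held calls in both directions. Of 20 genes for methyltransferases of this histone residue and their partners, 0 passed in limma and 7 had an unadjusted p under 0.05 (against 17.1% of all genes tested), with a median of 0.19; Trim28 stood at 0.46 (adjusted p = 0.0659) and Uhrf1, which links DNA methylation to chromatin, at 0.48 (adjusted p = 0.102). Among 20 receptors and restriction factors for retroviruses, 1 rose and 3 fell, with a median of -0.10. Of all genes tested, 1.03% rose and 0.978% fell. The list was chosen with earlier results of these data known, so its counts are a description and not a test. Slc7a1, the amino acid transporter that ecotropic murine leukaemia viruses use as their receptor, read 7.32 and 7.20 in marrow controls against 7.76 and 7.96, and 7.61 and 7.87 in culture controls against 8.83 and 8.89. It rose by 0.86 (SE 0.14, adjusted p = 0.0237) and lost its call without 6 of the 8 arrays (adjusted p up to 0.0842). Samhd1, which depletes the nucleotides that reverse transcription needs, read 9.57 and 10.09 in marrow controls against 8.38 and 8.15, and 10.12 and 9.78 in culture controls against 8.16 and 8.50. It fell by 1.59 (SE 0.15, adjusted p = 0.00518) and kept its call when each array was left out. Ddx58 (RIG-I), a sensor of viral RNA, fell by 0.81 (SE 0.15) and Trim12, one of several close copies, by 0.72 (SE 0.12); both lost their call without most single arrays, with adjusted p up to 0.132 and 0.0994.

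The interferon-response list gave no calls, and other genes that interferon can induce may lie outside it. Samhd1 and Ddx58, which fell, were counted with the retroviral factors and not here. Of 26 measured members 0 passed in limma and 3 had an unadjusted p under 0.05, against 17.1% of all genes tested, and the median was 0.0019 over both conditions, -0.53 in marrow and 0.32 in culture. Mx1 (-0.39, adjusted p = 0.104) and Oas1g (-0.86, adjusted p = 0.118) had the lowest p of the list.

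Of 25 germline and meiosis genes listed, 8 passed the filter on dim values, and 2 of those 8 rose. Since a silent gene enters the test only where some arrays raise it, this count is no support for the list as a whole. Stag3, a meiotic cohesin subunit, read 4.78 and 6.28 in marrow controls against 7.88 and 7.87, and 5.09 and 5.35 in culture controls against 7.38 and 7.14. The groups did not overlap within either condition, and 29 of its 34 probesets separated the same way in both. Of 16 imprinted genes tested, 0 passed in limma and 1 had an unadjusted p under 0.05, against 17.1% of all genes tested, with Grb10 at 0.55 (adjusted p = 0.101) and H19 at 0.77 (adjusted p = 0.39).

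Among 25 DNA replication genes 1 rose (Tyms) and 0 fell. All 25 were higher in the mean, against 53.2% of all genes tested, with a median of 0.34. Of 23 mitosis genes 0 passed in limma and 6 had an unadjusted p under 0.05, against 17.1% of all genes tested; 22 were higher, with a median of 0.20. Among 25 genes of glycolysis and the hypoxia response, 3 rose and 0 fell, with a median of 0.45: the pyruvate dehydrogenase kinase gene Pdk1 (0.91, SE 0.13), the angiogenic factor gene Vegfa (0.76, SE 0.14) and Gpi1 of glycolysis (0.55, SE 0.11). That count was 0 to 5 when single arrays were left out; Gpi1 lost its call in all 8 such fits (adjusted p up to 0.146).

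Of 14 members of the BCL2 family, 1 rose and 0 fell, with a median of -0.04. Bcl2l11 (BIM), which promotes apoptosis, read 6.57 and 6.59 in marrow controls against 7.83 and 7.49, and 8.30 and 7.57 in culture controls against 10.09 and 9.20. It rose by 1.40 (SE 0.25, adjusted p = 0.0305) over both conditions and lost its call without 7 of the 8 arrays. In the bcl-2 transgenic culture cells alone the difference was 1.71 and did not pass in limma (adjusted p = 0.062). In marrow alone it was 1.09 and did not pass either (adjusted p = 0.282). Of 18 p53 target genes 0 passed in limma and 3 had an unadjusted p under 0.05, against 17.1% of all genes tested, with Rrm2b at -0.91 (adjusted p = 0.157).

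Markers of other cell types were examined beside these results. Of 16 T cell markers 2 rose, Thy1 and Prkcq (1.82, SE 0.32), while the defining T cell receptor genes Cd3e and Cd3g lay at 5.18 to 6.34 and 3.67 to 4.20 on all 8 arrays and did not pass (adjusted p = 0.618 and 0.957). Lat, an adaptor of the T cell receptor, read 6.78 and 6.68 in marrow controls against 8.01 and 7.05, and 5.53 and 6.06 in culture controls against 6.92 and 8.14. Its deleted arrays lay above the controls in both conditions, and its difference of 1.27 (SE 0.34, adjusted p = 0.105) did not pass. Prkcq lost its call without 6 of the 8 arrays (adjusted p up to 0.098). The mean over the 16 T cell markers was 4.99 to 5.35 in controls and 5.26 to 5.85 in deleted cells. Of 12 stromal and endothelial markers 3 rose: Sparc (2.10, SE 0.42), Col1a1 (1.0, SE 0.17) and Col1a2 (1.04, SE 0.20). The count was 4 without bone marrow control 1, 1 without culture control 1 and 0 without each of the other 6 arrays, with adjusted p up to 0.133 for Sparc, 0.0933 for Col1a1 and 0.109 for Col1a2. The mean of that list was 5.47 to 6.31 in controls and 6.09 to 6.65 in deleted cells, the endothelial markers Cdh5 and Kdr stood at -0.08 and -0.10, and the part of stromal cells in these rises was not tested. Of 8 plasma cell markers 2 rose (Xbp1, and 2010001M09Rik, now Mzb1, at 0.94, SE 0.15) and Irf4 fell, while Prdm1 and Sdc1, which define plasma cells, stood at -0.64 and -0.26 (adjusted p = 0.387 and 0.582). Of 10 stem and progenitor markers 1 rose (Erg), with a median of 0.45; Erg lost its call without 7 of the 8 arrays (adjusted p up to 0.14).

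For the remaining marker lists limma called 0 genes. Beside 17.1% of all genes tested, unadjusted p was under 0.05 for 2 of 15 neutrophil markers, 1 of 16 monocyte and macrophage markers, 2 of 9 erythroid, 4 of 8 mast cell and basophil, 3 of 10 dendritic and 0 of 10 NK and innate lymphoid markers. Their levels did vary: the neutrophil mean was 8.90 to 9.31 in marrow and 4.56 to 8.10 in culture, where the arrays numbered 2 were the higher ones in both genotypes. The monocyte median differed by -2.33 in marrow and 0.90 in culture. The part of such cells in the shared effect was not tested.

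**Figure D5:**
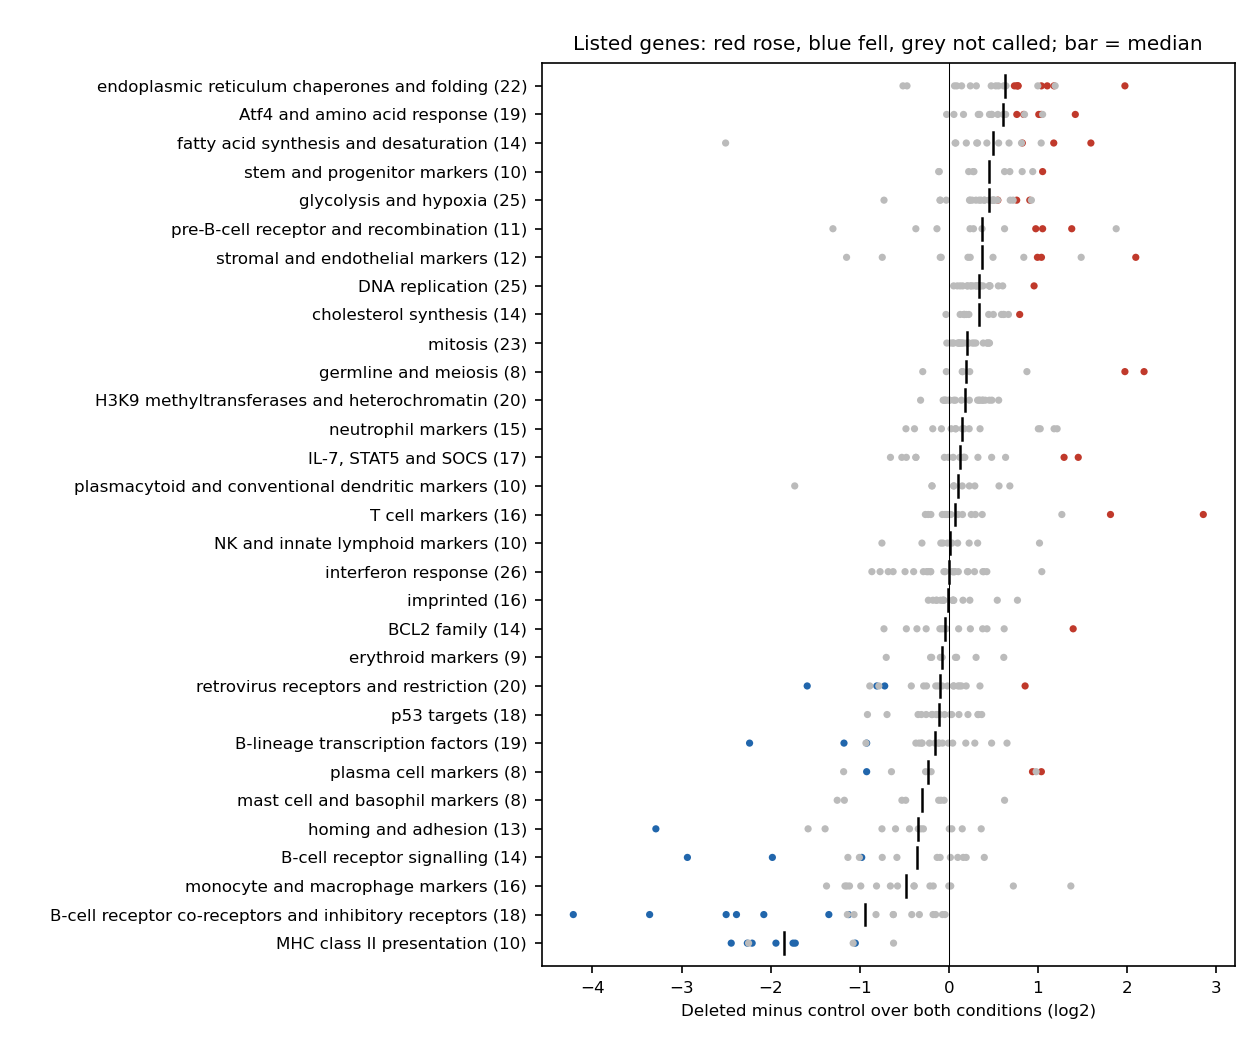
Points give the log2 difference, deleted minus control over both conditions, of each tested gene of 31 lists, with the number tested in brackets; red points rose, blue points fell, grey points were not called, and black bars mark medians. Class II presentation has the lowest median, at -1.84, and endoplasmic reticulum chaperones the highest, at 0.63.

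The shared genes were placed along the chromosomes by the order of tested genes in the RefSeq table. Of 320 called genes with a place, 13 pairs were direct neighbours, 11 of them moving the same way (5 fell, 6 rose). Whether called genes cluster was not tested, and the 2.01% of tested genes called is no background for having a called neighbour. These 11 pairs hold 20 genes, 6.25% of the called genes placed. Besides the class II genes they were Cish with Hemk1, Tubb3 with Def8, Prkcq with Pfkfb3 (0.65), Wbscr27 (1.04) with Cldn4 (1.32), Cd180 with Mast4 (-0.72), and the row Taf5l (0.71), Urb2 (0.75) and Galnt2 (1.05). In 2 pairs, Ralgps2 with Angptl1 and Hvcn1 with Tect1, the genes overlap, so shared transcripts cannot be told apart from separate changes.

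Some further falls were picked after their values were seen, because they belong to B cell activation and innate sensing. They include Bcl6 (-1.25, SE 0.21), the repressor of the germinal centre programme, Bcl3 (-1.22, SE 0.18) and Nfkbia (-0.93, SE 0.13) of the NF-kappaB pathway, the activation marker Cd83 (-1.71, SE 0.18), the cytokine receptor gene Il21r (-1.32, SE 0.14) and the kinase gene Irak2 (-1.09, SE 0.11). Hdac9, a class II histone deacetylase, read 8.16 and 7.93 in marrow controls against 6.16 and 6.29, and 8.35 and 8.26 in culture controls against 6.34 and 5.61. It fell by 2.08 (SE 0.18, adjusted p = 0.00473). Ptprc (CD45), the phosphatase of all leukocytes, fell by 0.94 (SE 0.10) and Pou2f2 (Oct-2) by 0.86 (SE 0.09).

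At the threshold, Fbxo22 (0.63, adjusted p = 0.0492) was the last gene inside and Hsp90b1 (0.48, adjusted p = 0.0506) the first outside. The smallest size among called genes was 0.48. Of 18041 probesets with no gene symbol and above the dim value, 50 passed in limma (0.277%).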

How the data were processed

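Gene arrays of 8 pro-B cell samples gave 1 value per probeset. The deposited values are log2; per the submitters' processing notes the tools were RMA, which corrects background, equalises distributions across arrays and summarises probes, and Affymetrix Expression Console 1.2.0.20; genome build and probe set level are not given in the sources used here. Of 241576 probesets, 212097 had 1 gene symbol in the platform annotation, 4475 several and 25004 none. Probesets with 1 symbol were summarised by median polish into 20416 genes (median 8 probesets). Genes above the 25th percentile of gene values (4.03) in at least 2 arrays were tested: 16050, with 4366 left out as dim. Symbols were checked against RefSeq's GRCm38.p6 table (17621 current, 2742 through a synonym, 53 unmatched).

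limma 3.58.1 in R 4.3.3 fitted condition and Setdb1 to all 8 arrays (5 residual and 3.31 prior degrees of freedom), with two-sided p-values adjusted by Benjamini-Hochberg across the 16050 genes and called under 0.05. A model of 4 group means (4 residual and 3.53 prior degrees of freedom) gave the effect in each condition and the interaction. The fit was tested on simulated data. Named genes are Setdb1, the 15 largest rises and falls with at least 3 probesets that moved alike in both conditions, the 10 of lowest p that passed only over both, and up to 4 called members (otherwise up to 2 of lowest p) per list; others were picked after their values were seen, as said beside each group, or stand as further members of a list described. The members and the 31 lists were chosen with earlier results of these data known. Alternatives covered summary, filter, normalisation, replicate block, model, array weights, variance trend and leaving out arrays. Same-numbered arrays deviated together with r = 0.0547 in marrow and 0.337 in culture. With 2 arrays per group both numbers must give the same r, so it does not decide whether the numbers pair the samples. The labels do not say so, and the main fit left the numbers out. With the numbers as a block within condition, 200 genes passed in limma. Python 3.11.15 searched promoters on both strands and drew the plots.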

Additional observations from a re-analysis of the deposited data

Results flagged for a closer look

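Probesets to which the platform annotation gives no gene symbol were not part of any comparison between genes. Of 18041 such probesets above the dim value, 27 rose in deleted cells over both conditions (0.15%) at an adjusted p under 0.05 in limma, and 50 changed in either direction (0.277%). Of named genes, 1.03% rose and 2.01% changed in either direction, but a gene value summarises a median of 8 probesets. The shares are therefore not directly comparable with those of single probesets without a symbol. These probesets are brought up because they carry signal outside the measurement by gene; what they read was not examined. No group held the 4 arrays that a check for outlying samples needs.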

How the results depend on the processing

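None of the 323 shared genes changed sign under any of 18 alternatives. Their arrays were separate in both conditions, so the alternatives that drop, pair or weight arrays could not turn a sign. Of the named genes only Setdb1, which was never called, turned positive. It stood at 0.049 with array weights, 0.094 without bone marrow control 1 and 0.066 without bone marrow deleted 2. It was 0.024 without culture control 1 and 0.012 without culture deleted 1. Its lowest value with 1 array left out, -0.13, came without culture control 2. Leaving out single arrays gave 59 to 699 shared calls, 25 to 323 rises, 34 to 376 falls, 59 to 699 genes changed alike, 0 to 570 calls in marrow, 1 to 429 in culture, 0 to 461 for the interaction, and 9 to 391 genes that passed over both conditions and in neither alone. The interaction's 461 calls came without bone marrow control 2, which left bone marrow control 1 as the only marrow control. Without both culture arrays numbered 2, the counts were 9 shared calls (5 rises, 4 falls, 9 alike), 0 in marrow, 8 in culture and 8 in neither alone. Array quality weights, from 0.429 for bone marrow control 1 to 1.8 for bone marrow deleted 1, gave 640 shared calls (334 rises, 306 falls, 618 alike), 159 in marrow and 428 in neither alone. Marrow calls were 36 with the mean of probesets and 37 with an intensity trend and robust prior. Shared counts ranged from 307 to 459 under the filter, summary, normalisation, model and trend alternatives. The causes were not tested beyond the loss of arrays that the alternatives themselves make.

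With the replicate number as a block within condition, 200 genes passed (94 rises, 196 alike), 185 of them among the 323, with 12 calls in marrow and 123 in neither alone. The labels do not say that the numbers pair the samples, and a call lost under the block is not a weaker effect.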
